A study of Caenorhabditis elegans with 48 samples.

Results

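Late and early starvation were compared in *Pgld-1::TIR1; ama-1::AID* larvae of *C. elegans* (strain LRB387), with 4 libraries from 132 h of L1 arrest in ethanol and 4 libraries from 36 h of L1 arrest. These 8 of the 48 libraries in the series were chosen by the strain, time and treatment in their labels. The whole series holds 4 strains, each sampled at 36 h and at 132 h with auxin or with ethanol, in order to ask what transcription does during starvation. Both groups described here carried the same alleles. ieSi64 on chromosome II is a single-copy transgene in which the *gld-1* promoter and the *gld-1* 3′ UTR drive TIR1 fused to mRuby, with *Cbr-unc-119* as the marker. TIR1 is the plant F-box protein that targets degron-tagged proteins for degradation once auxin is present, and the *gld-1* promoter places it in germ cells. *ama-1(syb1513)* on chromosome IV adds the degron to AMA-1, the largest polypeptide of RNA polymerase II. No larva of either group received auxin. Larvae at 132 h had been in ethanol, the solvent for auxin, for the last 96 h, and larvae at 36 h had received nothing, so elapsed time and ethanol cannot be told apart. RNA came from populations of whole larvae, and fewer cells of a type and less RNA per cell cannot be told apart.

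*C. elegans* larvae that hatch without food halt development at the first larval stage and can live in this state for weeks, using the fat and yolk they inherited. Lysosomal and cytosolic lipases release fatty acids, mitochondrial oxidation turns them into acetyl-CoA, and the glyoxylate shunt lets nematodes build sugar from that acetyl-CoA. Reduced insulin-like signalling through DAF-2 activates the transcription factor DAF-16, AMPK responds to low energy, and both are known to be needed for long survival in this arrest. The intestine is the main metabolic organ of the larva, and the germline consists of a pair of cells that do not divide until feeding starts.

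Counts on genes were 7309076 to 11622371 per library at 132 h and 5755041 to 12600252 at 36 h. The 12 pairs of replicates within a group differed by 7.27 to 28.6 times counting error (chi-squared per degree of freedom), so no library was a copy of another. Abundance is given as CPM, counts divided by the size of the library, after upper-quartile normalization, which sets libraries to a common level of their middle and upper genes. It is a relative measure, and scaling to the spike-in RNAs gave a different overall level. Spike-ins were 1.97% ± 0.394 of the counts on genes and spike-ins at 132 h and 2.45% ± 0.372 at 36 h (SD, n = 4 each), and the groups overlapped (two-sided exact permutation p = 0.2, adjusted p = 0.2 over 4 library measures). The first factor of variation over the spike-ins, W1, was −0.0627 ± 0.0912 at 132 h and 0.122 ± 0.0515 at 36 h (SD, n = 4 each), with no overlap between the groups (two-sided exact permutation p = 0.0286, which is as small as 4 against 4 libraries can give, adjusted p = 0.0571). The 10 most abundant genes held 13.6% ± 1.31 of counts at 132 h and 18.3% ± 1.93 at 36 h, also without overlap (exact permutation p = 0.0286, adjusted p = 0.0571). Ribosomal RNA was 5.48% ± 1.07 of counts at 132 h and 8.72% ± 2.39 at 36 h (exact permutation p = 0.0857, adjusted p = 0.114). The part of these composition measures in the results was not tested beyond the fits with and without W1.

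Of 15549 protein-coding genes tested, 17% rose and 17.1% fell between 36 h and 132 h with ethanol at an adjusted p under 0.05 (edgeR quasi-likelihood test, Benjamini-Hochberg). These shares are the background for the first counts of every list below. Without regard to the test, 18.3% of genes had all 4 libraries at 132 h above all 4 at 36 h, and 18.6% had all of them below. The changes were often large. Among the genes that rose, 784 changed by at least 2 on the log2 scale and 315 by at least 4, and among those that fell the numbers were 736 and 191. The median log2 fold change over all genes was −0.0024. When libraries were scaled to the spike-ins, which had been added in proportion to total RNA, this median was 0.78, with 4665 genes higher and 623 lower. Those counts, of 15549 genes, are the background for every list count given with spike-in scaling. Rises were thus far more frequent than falls over all genes on that scale. Levels scaled in this way are relative to total RNA and not per larva. The paper reports that total RNA per larva declined late in arrest. A rise with spike-in scaling therefore need not be a rise per larva. A fit of these 8 libraries alone gave 1252 genes higher and 1408 lower with W1, and 2813 and 2902 without it. With W1 that fit also changed the sign of the medians of some lists, as given beside them. A change in relative abundance is therefore given here beside the shift of 0.78, and for each gene list the numbers with spike-in scaling follow the first ones. The fit with spike-in scaling also left W1 out, so its numbers differ from the first ones in both respects. For muscle, the list median minus that of all genes was −0.36 in the first fit, −0.23 without W1 and −0.19 with spike-in scaling. For cell cycle genes these values were 0.31, −0.04 and −0.05, and for the proteasome 0.71, 0.70 and 0.73.

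**Figure D1:**
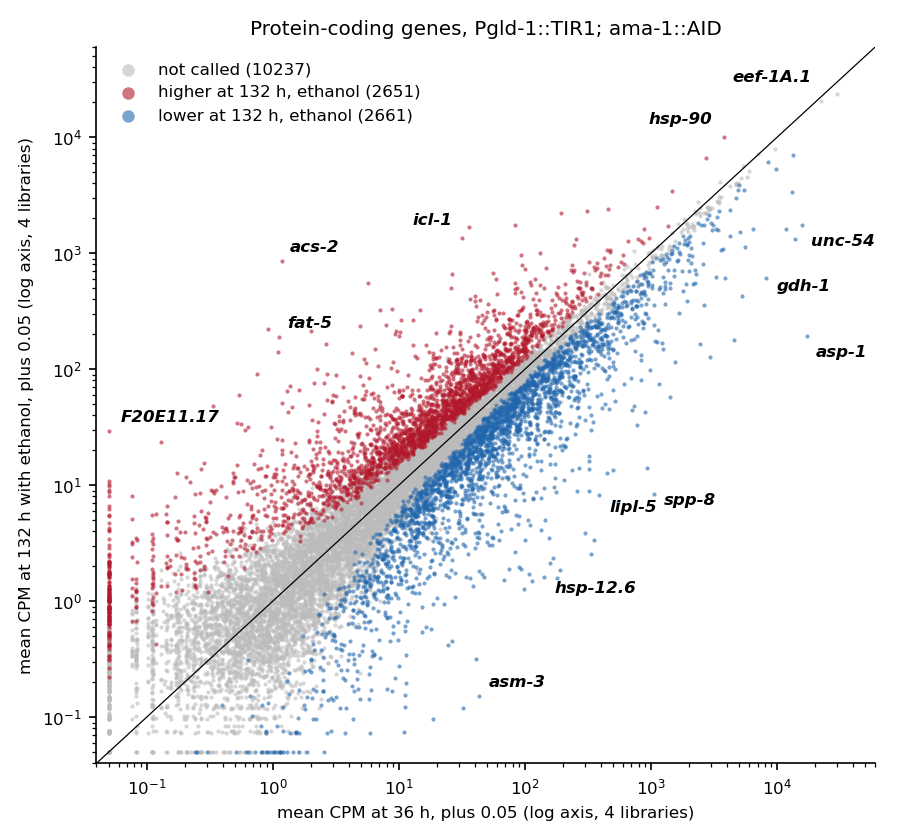
Mean CPM at 132 h with ethanol (vertical, log axis) against mean CPM at 36 h (horizontal, log axis) for each of the 15549 protein-coding genes tested, 4 libraries per mean, with genes that rose and fell coloured. *acs-2* and *icl-1* sit far above the diagonal, at 865 and 1355 CPM at 132 h, and *asp-1* far below it, at 194 CPM.

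The gene that carries the degron was measured first. *ama-1* (chromosome IV, 4248070 to 4258169 in WBcel235) had 396, 641, 498 and 438 CPM in replicates 1 to 4 at 132 h, and 272, 342, 326 and 414 CPM at 36 h. The groups overlapped through replicate 1 at 132 h alone. Its log2 fold change was 0.70 ± 0.23 (SE, adjusted p = 0.0151), a call that was lost without replicate 2 at 132 h (0.54) and without replicate 1 at 36 h (0.60). *gld-1*, which encodes a translational repressor of the germline, had 32.3, 44.1, 40.7 and 23.7 CPM at 132 h and 9.13, 14.2, 6.18 and 23.2 CPM at 36 h. The groups came within 1 CPM of each other without overlapping, and *gld-1* rose by 1.84 ± 0.49 on the log2 scale (adjusted p = 0.00240). Reads from the 3′ UTR of the transgene and from *gld-1* itself cannot be told apart. *eef-1A.1*, the translation elongation factor whose promoter drives TIR1 in the somatic strains of the series, was at 23488 ± 4456 CPM at 132 h and 29796 ± 1973 CPM at 36 h and was not called (−0.28 ± 0.15, adjusted p = 0.141). It overlaps F31E3.12, the library kit did not mark strand, and *eef-1A.2* encodes the same protein, so its level is uncertain.

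The defining markers of the larval tissues were present. Body-wall muscle had myosin *myo-3* at 489 ± 95.9 CPM at 132 h and 1289 ± 234 CPM at 36 h. The intestinal vacuolar ATPase subunit *vha-6* and the intestinal esterase *ges-1* were both measured, at 120.1 ± 45.6 and 10.1 ± 2.68 CPM at 132 h, and 832 ± 49.4 and 31.1 ± 5.17 CPM at 36 h. Epidermal *lin-26* was at 59.0 ± 7.46 CPM at 132 h and 63.8 ± 8.21 CPM at 36 h, and pan-neuronal *rab-3* at 49.2 ± 9.15 CPM at 132 h and 58.5 ± 5.43 CPM at 36 h. The cuticle collagen *dpy-7* was low in both groups, at 1.37 ± 0.453 CPM at 132 h and 1.56 ± 0.941 CPM at 36 h. Lists of cells that arrested larvae lack were also counted. The oocyte yolk receptor *rme-2* was at 4.29 to 9.66 CPM at 132 h and 4.31 to 6.64 CPM at 36 h, and the sperm gene *spe-9* at 0.402 to 3.13 CPM at 132 h and 0.138 to 4.69 CPM at 36 h. Of 20 tested members of the oocyte, eggshell and embryo list, 2 rose (*mei-1*, *chs-1*) and 1 fell (*skr-19*), with a median of 0.08, and with spike-in scaling 3 rose and 1 fell with a median of 0.73. This list was not low as a whole, with a sum of 843 to 878 CPM at 132 h and 951 to 1182 CPM at 36 h. Most of the sum came from *nmy-2*, a non-muscle myosin, at 332 ± 8.84 CPM at 132 h and 374 ± 23.9 CPM at 36 h, from the transcription factor *skn-1*, at 318 ± 12.4 CPM at 132 h and 298 ± 90.5 CPM at 36 h, and from *skr-19*, at 71.7 ± 8.51 CPM at 132 h and 240.4 ± 27.1 CPM at 36 h. No yolk protein gene of 6 was called, also with spike-in scaling, with their sum at 5.71 to 58.2 CPM at 132 h and 10.5 to 46.3 CPM at 36 h. Their median was 0.40, or 1.41 with spike-in scaling and −1.86 in the fit of the 8 libraries alone with W1. The sperm genes summed to 80.7 to 99.2 CPM at 132 h and 53.0 to 76.7 CPM at 36 h. Of 31 sperm genes 2 rose (*spe-39*, *spe-15*) and none fell, with a median of 0.59, or 0.28 once members with no count in a group were set to their bound, and with spike-in scaling 5 rose and none fell with a median of 1.32. *chs-1* (1.26) lost its call without any 1 library except replicate 4 of either time, at 1.01 to 1.33, *mei-1* (0.78) without replicate 3 at 132 h or without replicate 2 or 4 at 36 h, at 0.70 to 0.75, and *spe-39* (0.59) without replicate 3 at 132 h, at 0.51, or replicate 1 at 36 h, at 0.49. *lin-26*, *rab-3*, *chs-1* and *spe-9* overlap neighbouring genes.

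The largest rises were of genes with few or no counts at 36 h. F20E11.17, a protein-coding gene with no given name (chromosome V, 17468613 to 17469280), had 34.7, 32, 24.5 and 26.8 CPM at 132 h and no count in any library at 36 h. Taking 3 counts over the 36 h group as the limit, it was at least 281-fold higher at 132 h, a limit that covers counting error only, since the PCR reads carried no molecular identifiers. Of the 12 largest rises, 11 had no count in any 36 h library. Among them, *pals-4*, of a family whose members *pals-22* and *pals-25* control the response to intracellular pathogens, was at least 103-fold higher, with 10.2, 12.9, 3.90 and 16.4 CPM at 132 h. It overlaps *pals-3*. The F-box gene *fbxa-30* was at least 94.1-fold higher, and the arrestin-domain gene *arrd-9* at least 62.9-fold, with 3.89, 8.09, 5.94 and 8.47 CPM at 132 h. The exception was *acs-2*. Across all genes, 450 tested genes had no count at 36 h and 141 of these rose, while 123 had no count at 132 h and 24 of these fell. The direction of these calls was fixed by the choice of genes, since a gene with no count in a group cannot be lower there. Libraries at 132 h had 15180 to 16248 genes with a count, and those at 36 h had 13829 to 15001. Whether this difference in detection accounts for the unequal numbers was not tested.

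*acs-2* encodes a mitochondrial acyl-CoA synthetase that primes fatty acids for oxidation and is a known target of NHR-49 in fasting worms. It had 1001, 991, 717 and 749.6 CPM at 132 h, and 0.415, 0, 1.81 and 2.28 CPM at 36 h. All 4 libraries at 132 h stood far above those at 36 h, none of which passed 3 CPM, and the log2 fold change was 9.05 ± 0.59 (adjusted p = 4.44e-17). The gene lies on chromosome V at 15567394 to 15569897. *hacd-1*, a hydroxyacyl-CoA dehydrogenase of the same pathway, had 241, 211, 166 and 235 CPM at 132 h and 1.66, 2.20, 0.746 and 3.17 CPM at 36 h. It rose by 6.63 ± 0.49 on the log2 scale (adjusted p = 2.66e-15) with no overlap. *acs-19*, another acyl-CoA synthetase family gene, rose by 3.07 ± 0.18 (adjusted p = 8.59e-19), with 744, 868, 786 and 769 CPM at 132 h and 89.8, 106, 88.9 and 97.6 CPM at 36 h. These values varied little within a group and were far apart between groups.

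Lipase genes were among those that fell. *lipl-5*, a lysosomal lipase known to be induced when worms fast, had 4.83, 7.68, 11 and 9.21 CPM at 132 h and 453, 369.9, 339 and 394 CPM at 36 h (log2 fold change −5.40 ± 0.32, adjusted p = 2.58e-18). *lipl-2*, of the same family, had 2.55, 0.207, 2.34 and 0.645 CPM at 132 h and 119.9, 111, 99.6 and 124 CPM at 36 h (−6.17 ± 0.51, adjusted p = 8.40e-14). Both were far lower in every library at 132 h than in any at 36 h. The adipose triglyceride lipase *atgl-1*, which acts on cytosolic lipid droplets, had 58.7, 66.2, 59.4 and 62.8 CPM at 132 h and 251, 276, 286 and 261 CPM at 36 h, and fell by 2.14 on the log2 scale (SE 0.13, adjusted p = 3.97e-18). MXL-3, a bHLH repressor of lysosomal lipase genes in fed worms, is encoded by a gene that rose by 4.24 ± 0.36 on the log2 scale (adjusted p = 1.29e-13), with *mxl-3* at 274, 315, 274 and 205 CPM at 132 h and 12.4, 15.4, 13.6 and 10.0 CPM at 36 h. The groups of *atgl-1* and of *mxl-3* did not overlap. Over the 67 tested lipase and fatty acid oxidation genes, 16 rose and 16 fell, 23.9% each way, with a median of 0.01, and with spike-in scaling 24 rose and 5 fell. The fit of the 8 libraries alone with W1 gave 15 higher and 10 lower with a median of −0.05.

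**Figure D2:**
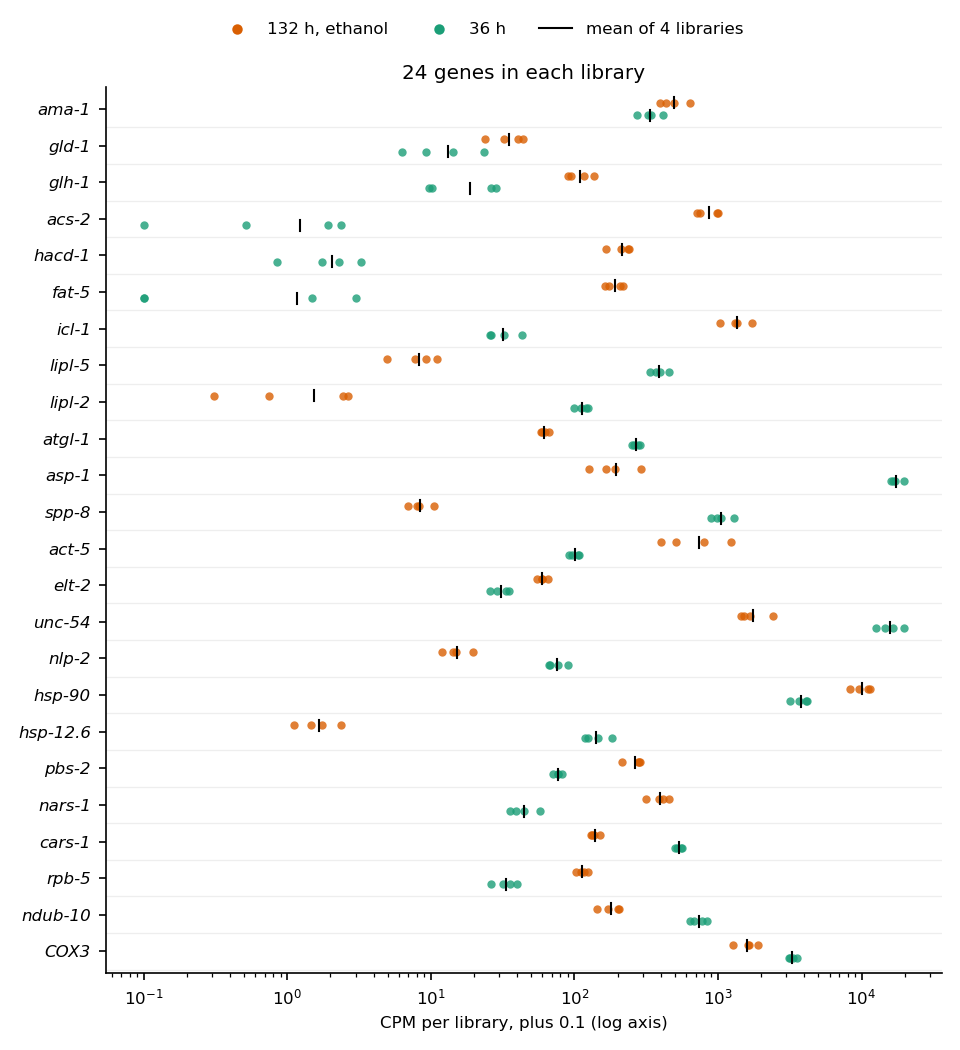
CPM in each of the 8 libraries (log axis, with a small offset so that 0 can be drawn) for 24 genes, with libraries at 132 h with ethanol and at 36 h as separate points. The separation is widest for genes such as *acs-2*, at 717 to 1001 CPM at 132 h and 0 to 2.28 CPM at 36 h, and narrowest for *ama-1*, whose groups overlap.

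*icl-1*, which encodes the combined isocitrate lyase and malate synthase of the glyoxylate shunt, had 1026, 1349, 1741 and 1306 CPM at 132 h and 32.2, 26.2, 43.3 and 25.6 CPM at 36 h. The groups were far apart, and the log2 fold change was 5.31 ± 0.34 (adjusted p = 3.24e-17). The mitochondrial aconitase *aco-2* had 1049, 1093, 1356 and 1178 CPM at 132 h and 259.9, 218, 230.3 and 269.9 CPM at 36 h (2.17 ± 0.15, adjusted p = 5.25e-16), again with no overlap. The mitochondrial malate dehydrogenase *mdh-2* and fructose-1,6-bisphosphatase *fbp-1*, a step of gluconeogenesis, rose by 1.54 ± 0.19 and 1.36 ± 0.23 on the log2 scale. The cytosolic enzymes and trehalases were mixed. *aco-1* fell, at −1.59, and *pck-2*, a phosphoenolpyruvate carboxykinase, fell by 0.66 on the log2 scale. *tre-5*, which encodes a trehalase, had 5.36, 4.46, 4.97 and 7.18 CPM at 132 h and 87.4, 82.3, 91.5 and 79.0 CPM at 36 h (−3.94 ± 0.33, adjusted p = 1.06e-13), whereas trehalase *tre-2* rose by 2.33 ± 0.20. Of 22 genes for the glyoxylate shunt, gluconeogenesis and trehalose, 8 rose and 7 fell with a median of 0.01, against 11 and 2 with spike-in scaling. *aco-2* and *pck-2* each overlap another gene.

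Glycolysis genes fell more often than they rose, 8 against 4 of 19 with a median of −0.24, but with spike-in scaling 2 fell and 6 rose with a median of 0.63, which is 0.15 below the shift of all genes. Aldolase *aldo-2* had 538, 478, 824 and 652 CPM at 132 h and 3386, 3415, 3320.3 and 2894 CPM at 36 h (−2.31 ± 0.18, adjusted p = 1.17e-14). *gpd-3*, a glyceraldehyde-3-phosphate dehydrogenase, fell by 1.41 on the log2 scale. The genes that rose were *pgk-1*, *hxk-1*, *tpi-1* and lactate dehydrogenase *ldh-1*, and *hxk-1* (0.63) lost its call without any 1 library except replicate 3 at 36 h, at 0.55 to 0.66. *ldh-1* had 99.5, 88.5, 94.5 and 94.6 CPM at 132 h and 26.1, 33.8, 27.2 and 25.2 CPM at 36 h (1.83 ± 0.18, adjusted p = 8.24e-12), with every library at 132 h above those at 36 h. *aldo-2* overlaps F01F1.3.

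Fatty acid synthesis and desaturation genes split evenly, with 6 of 20 higher and 6 lower and a median of 0.03 (8 and 1 with spike-in scaling), and the split ran between close relatives. *fat-5*, a Δ9 desaturase that prefers palmitate, had 175, 218, 207 and 164 CPM at 132 h and 1.38, 0, 0 and 2.92 CPM at 36 h (7.29 ± 0.61, adjusted p = 9.30e-14). *fat-6*, a Δ9 desaturase that acts on stearate, had 253, 240.4, 325 and 193 CPM at 132 h and 1350.4, 584, 649 and 902 CPM at 36 h (−1.80 ± 0.28, adjusted p = 6.84e-07). Their groups did not overlap, in opposite directions. *dgat-2*, which makes triglyceride from diglyceride, had 81.5, 86.3, 92.8 and 104 CPM at 132 h and 3.87, 2.69, 2.56 and 1.52 CPM at 36 h (5.14 ± 0.40, adjusted p = 1.70e-14). The elongases *elo-3*, *elo-6* and *elo-9* were among those that rose, while the desaturases *fat-3* and *fat-4* and the regulators *sbp-1* and *mdt-15* fell. The fall of *mdt-15*, −0.82, came to 0.0019 with spike-in scaling. *fat-5* and *dgat-2* overlap other genes.

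The largest falls included proteases and saposin-like genes of the gut. *asp-1*, an aspartic protease made in the larval gut (chromosome V, 19049562 to 19050752), had 126, 192, 292 and 166 CPM at 132 h and 19758, 17238, 15972 and 16625 CPM at 36 h. It fell by 6.35 on the log2 scale (SE 0.44, adjusted p = 3.89e-16). *asp-3*, a related protease, had 135, 143, 194 and 245 CPM at 132 h and 5489, 4341, 4374 and 3989 CPM at 36 h (−4.58 ± 0.26, adjusted p = 9.44e-19). *spp-8*, a saposin-like gene, had 10.5, 7.88, 8.19 and 6.82 CPM at 132 h and 1292, 980.3, 1052 and 894 CPM at 36 h (−7.01 ± 0.44, adjusted p = 9.80e-18). In all of these genes the groups were separated by more than an order of magnitude. *spp-6* and the sphingomyelinase *asm-3* were at or near 0 at 132 h, at 0 to 0.276 and 0 to 0.415 CPM, against 24.1 to 35.7 and 28 to 73.7 CPM at 36 h. The acid ceramidase *asah-1* had 4.69, 4.15, 1.75 and 2.76 CPM at 132 h and 355, 403, 371 and 296 CPM at 36 h (−6.62 ± 0.43, adjusted p = 3.48e-17).

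Of the 57 tested gut proteases, lysozymes and saposin-like genes, 29 fell (50.9%) and 7 rose (12.3%), and the median was −2.19. With spike-in scaling 26 fell and 11 rose, and the median was −1.22, 2.00 below that of all genes. Their summed level was 3007 to 4351 CPM at 132 h and 42284 to 52843 CPM at 36 h. Of the members that rose, *spp-27* had 103, 32.9, 19.5 and 208 CPM at 132 h and 0, 2.69, 0 and 0.127 CPM at 36 h (7.40 ± 1.09, adjusted p = 3.25e-07). Its libraries at 132 h spread over an order of magnitude, yet all lay above those at 36 h. Others were *lys-3* and *cpr-3*, and *asp-17*, *spp-21* and *ilys-3*, the last 3 of which averaged at most 2.06 CPM at 132 h and had no count at 36 h.

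The intestinal list had 13 of 27 members lower and 4 higher, with a median of −0.74, while with spike-in scaling 8 were lower and 7 higher and the median was 0.07, which is 0.71 below the shift of all genes. *vha-6* had 123, 109, 69.1 and 179 CPM at 132 h and 863, 822, 766 and 876 CPM at 36 h (−2.94 ± 0.27, adjusted p = 1.18e-12), and *ges-1* fell by 1.80 on the log2 scale. The intestinal GATA factor *elt-2* was among the 4 that rose. It had 59.0, 59.6, 54.7 and 65.3 CPM at 132 h and 25.7, 33.3, 28.8 and 34.8 CPM at 36 h (1.09 ± 0.23, adjusted p = 1.23e-04). *act-5*, the actin of the microvilli, had 796, 509, 402 and 1243 CPM at 132 h and 95.9, 108, 92.0 and 105 CPM at 36 h (2.80 ± 0.35, adjusted p = 1.03e-08). Both genes were higher in every library at 132 h, and *act-5* varied 3-fold among them. *pho-1*, which overlaps another gene, and *pgp-3* were the others.

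C-type lectins, many of which are expressed in the gut and induced by pathogens, fell in 35 of 128 cases and rose in 8, with a median of −0.99, or −0.88 with members lacking counts in a group at their bound. With spike-in scaling 21 fell and 11 rose with a median of 0.00, which is 0.78 below that of all genes. *clec-47* went against the list, with 25.5, 19.6, 92.9 and 56.5 CPM at 132 h and 0.415, 0.735, 0 and 0 CPM at 36 h (8.14 ± 1.09, adjusted p = 3.32e-08). Even its lowest library at 132 h was above all at 36 h. The glutathione transferases, cytochromes P450 and glucuronosyltransferases, which modify foreign compounds, were close to the shares over all genes (17% higher and 17.1% lower). Of these 173 genes 28 were higher (16.2%) and 33 lower (19.1%), with a median of −0.09, and 46 were higher and 13 lower with spike-in scaling. *gst-20* had 12.3, 16.7, 10.3 and 14.4 CPM at 132 h and 464, 488, 603 and 427 CPM at 36 h (−5.12 ± 0.32, adjusted p = 6.59e-18), with no overlap.

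The muscle list was led by falls in myosins. *unc-54*, the major myosin heavy chain of body-wall muscle, had 1452, 1680.1, 2402 and 1513 CPM at 132 h and 12558, 16531, 14667 and 19672 CPM at 36 h (−3.10 ± 0.28, adjusted p = 1.18e-12). Paramyosin *unc-15*, of the thick filament core, had 602, 764, 844 and 636 CPM at 132 h and 2218, 2130.4, 2383 and 2251 CPM at 36 h (−1.72 ± 0.17, adjusted p = 2.24e-11). Neither pair of groups overlapped. Of 45 members 18 fell and 9 rose, with a median of −0.36, whereas with spike-in scaling 4 fell and 17 rose and the median was 0.59, which is 0.19 below that of all genes. The summed level was 11830 to 15532 CPM at 132 h and 32668 to 39907 CPM at 36 h. Those that rose included genes of the complexes that attach muscle to its surroundings, *pat-2*, *unc-112*, *unc-95* and *unc-98*. *pat-3*, the β-integrin of the attachment sites, had 140.3, 150.3, 129 and 164 CPM at 132 h and 56.6, 54.1, 69.6 and 57.9 CPM at 36 h (1.34 ± 0.14, adjusted p = 3.19e-11), and the cofilin gene *unc-60*, which overlaps F53E2.2, rose by 1.83 ± 0.22.

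Of 40 neuronal genes 16 fell and 2 rose, with a median of −0.50, but with spike-in scaling none fell and 5 rose and the median was 0.46, which is 0.32 below that of all genes. In the fit of the 8 libraries alone with W1, 2 fell and none rose, with a median of −0.33. *odr-10*, the diacetyl receptor of the AWA neurons, had 13.9, 13.4, 6.33 and 12.1 CPM at 132 h and 31.5, 40.9, 32.1 and 34.4 CPM at 36 h (−1.54 ± 0.46, adjusted p = 0.00708). The members that rose were the touch channel gene *mec-4* and *tdc-1*, the tyrosine decarboxylase of tyramine synthesis. *tdc-1* had 26, 38.6, 24.2 and 30.2 CPM at 132 h and 11.1, 10.8, 11.9 and 13.1 CPM at 36 h (1.35 ± 0.37, adjusted p = 0.00343). *mec-4* (0.94) lost its call without replicate 3 at 132 h, at 0.68, and without replicates 2, 3 or 4 at 36 h, at 0.85 to 0.94. Both overlap other genes. None of 98 neuropeptide genes rose and 28 fell, with a median of −0.74, while with spike-in scaling 4 rose and 4 fell with a median of 0.13, which is 0.65 below that of all genes. *nlp-2* had 14.2, 19.6, 11.8 and 14.9 CPM at 132 h and 89.9, 67.1, 77.4 and 66.1 CPM at 36 h (−2.34 ± 0.32, adjusted p = 8.19e-08), a separation with no overlap.

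The epidermal list was close to the shares over all genes, 17% higher and 17.1% lower. Of 41 members 7 rose (17.1%) and 6 fell (14.6%), with a median of 0.18 (11 and 2 with spike-in scaling, and 5 and 2 with a median of −0.05 in the fit of the 8 libraries alone with W1). Chitinase *cht-1*, of the class of enzymes that break down chitin, had 542, 1036, 560.1 and 533 CPM at 132 h and 24.8, 29.6, 22.9 and 29.1 CPM at 36 h (4.60 ± 0.39, adjusted p = 2.39e-13). It was high in every library at 132 h and highest in replicate 2, and it overlaps *slcf-2*. Of 125 cuticle collagen genes 12 rose and 16 fell, with a median of −0.04, against 19 and 6 with a median of 0.72 with spike-in scaling. *col-39* had 73.2, 56.5, 85.3 and 83.8 CPM at 132 h and 1036, 1227, 1106 and 1260.0 CPM at 36 h (−3.77 ± 0.30, adjusted p = 1.73e-14), without overlap. The hedgehog-related genes, which nematodes use in the epidermis and cuticle, had 6 of 36 higher (16.7%, close to the share over all genes) and 1, *grl-5*, lower. Their median was 0.55, or 0.34 with members lacking counts in a group at their bound. They were sparse, with a sum of 98.5 to 128 CPM at 132 h and 60.0 to 89.7 CPM at 36 h. *grd-3* had 7.11, 7.57, 11.3 and 9.49 CPM at 132 h and 0.277, 0.245, 0 and 0.634 CPM at 36 h (4.83 ± 0.66, adjusted p = 7.22e-08). With spike-in scaling 10 of them rose and 1 fell.

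Of 15 genes of fed larval growth and molting, 1 rose, *mlt-10*, and 3 fell, with a median of 0.19, and with spike-in scaling 2 rose and none fell with a median of 1.06. The 3 were the heterochronic genes *lin-28*, *lin-14* and *lin-41*, which set the order of larval fates. *lin-28* had 162, 138, 179.7 and 173 CPM at 132 h and 321, 246, 295 and 264 CPM at 36 h (−0.72 ± 0.13, adjusted p = 1.60e-05). *lin-14* had 346, 365, 452 and 291 CPM at 132 h and 552, 532, 468 and 485 CPM at 36 h (−0.56 ± 0.16, adjusted p = 0.00473). Neither overlapped, and with spike-in scaling *lin-28* was at −0.06 while *lin-14* and *lin-41* turned to 0.29 and 0.50. *lin-41* (−0.32) lost its call without replicates 1, 2 or 4 at 132 h or 1 or 2 at 36 h, at −0.32 to −0.28. *lin-28* overlaps F02E9.1.

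The germ cells of arrested larvae hold RNA-rich granules with helicases and RNA-binding proteins. Of 55 germ granule and germ cell genes, 10 rose (18.2%) and 3 fell (5.45%), with a median of 0.35. The share that rose was close to the 17% of all genes, and the share that fell was below their 17.1%. With spike-in scaling 22 rose and none fell with a median of 1.07, which is 0.28 above that of all genes. The fit of the 8 libraries alone with W1 gave 4 higher and 2 lower with a median of 0.42. *glh-1*, the Vasa-like helicase of germ granules, had 94.2, 138, 89.9 and 118 CPM at 132 h and 10.1, 9.55, 28.3 and 26.4 CPM at 36 h (2.33 ± 0.37, adjusted p = 1.63e-06). *mrg-1*, a chromodomain protein needed for germ cell development, had 96.0, 112, 99.2 and 88.6 CPM at 132 h and 28.8, 31.1, 23.3 and 27.3 CPM at 36 h (2.04 ± 0.23, adjusted p = 7.82e-10). The libraries of both genes separated fully by time. Other germ granule markers did not move past the threshold, with *pgl-1* at 21.6 ± 4.38 CPM at 132 h and 18.5 ± 7.73 CPM at 36 h and *glh-4* at 17.4 ± 6.99 CPM at 132 h and 14.4 ± 2.21 CPM at 36 h. The members that fell were *car-1*, *mes-3* and *gld-2*. *gld-2*, the cytoplasmic poly(A) polymerase, had 91.7, 106, 73.7 and 82.4 CPM at 132 h and 181, 217, 170.4 and 173 CPM at 36 h (−1.05 ± 0.14, adjusted p = 4.21e-08). With spike-in scaling *gld-2* was at −0.23, while *car-1* and *mes-3* turned to 0.02 and 0.27. *gld-2* overlaps *klu-2*.

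Of 25 small RNA factors 9 rose and 2 fell, with a median of 0.38, and with spike-in scaling 15 rose and none fell. In the fit of the 8 libraries alone with W1, 4 rose and 1 fell and the median was −0.10. *prg-1*, the Piwi protein that binds piRNAs, had 38.6, 63.0, 39.7 and 34.9 CPM at 132 h and 14.4, 18.1, 10.4 and 13.7 CPM at 36 h (1.58 ± 0.24, adjusted p = 4.27e-07). It overlaps D2030.12. The 2 that fell were *nrde-3*, which carries small RNAs into somatic nuclei, and *alg-1*, an argonaute of the microRNA pathway. *alg-1* had 236, 262, 278 and 249 CPM at 132 h and 541, 639.8, 471 and 521 CPM at 36 h (−1.11 ± 0.17, adjusted p = 5.99e-07), and was the lower one of its pair, since its close relative *alg-2* rose by 0.81 on the log2 scale. With spike-in scaling *alg-1* was at −0.29 and *nrde-3* turned to 0.14, and *nrde-3* (−0.54) lost its call without replicate 1 at 132 h, at −0.50, or replicate 2 at 36 h, at −0.46. Among 40 cell cycle genes 8 rose and 2 fell, with a median of 0.31, a value that was −0.04 without W1 and 0.73 with spike-in scaling, 0.05 below all genes. With spike-in scaling 15 rose and none fell, and the fit of the 8 libraries alone with W1 gave 2 higher and none lower. *cdc-6*, which licenses replication origins, had 59.8, 60.8, 51.6 and 47.3 CPM at 132 h and 19.5, 27.4, 10.2 and 18.1 CPM at 36 h (1.61 ± 0.23, adjusted p = 1.70e-07), with no overlap. The 2 lower ones were *cdk-2* and *fzr-1*, the second of which turned to 0.36 with spike-in scaling.

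Insulin-like peptides are the ligands of DAF-2. Of 31 insulin-like peptide genes 8 fell and 1, *ins-37*, rose, with a median of −0.59, and with spike-in scaling 1 fell and 1 rose with a median of −0.07, which is 0.85 below that of all genes. *ins-35* had 0, 0.519, 0.390 and 0.184 CPM at 132 h and 8.58, 5.14, 9.48 and 4.95 CPM at 36 h (−5.74 ± 0.99, adjusted p = 6.78e-06). From the receptor to DAF-16 and its targets, 11 of 24 genes fell and 2, *ftt-2* and *fat-5*, rose, with a median of −0.40, but with spike-in scaling 3 fell and 7 rose with a median of 0.52, which is 0.26 below that of all genes. The receptor gene *daf-2*, named after its values were seen, had 201, 322, 306 and 229 CPM at 132 h and 498, 642, 584 and 637 CPM at 36 h (−1.14 ± 0.19, adjusted p = 3.11e-06). *daf-16*, also named after its values were seen, had 232, 283, 264 and 204 CPM at 132 h and 440.4, 433, 326 and 351 CPM at 36 h (−0.70 ± 0.15, adjusted p = 1.84e-04). Both were lower in every library at 132 h, while spike-in scaling gave *daf-2* −0.33 and turned *daf-16* to 0.16.

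Of 18 AMPK and TOR genes 6 fell and 1, the LKB1 kinase gene *par-4*, rose, with a median of −0.25, whereas with spike-in scaling none fell and 4 rose with a median of 0.57, which is 0.21 below that of all genes. Those that fell included both catalytic subunits of AMPK, *aak-1* and *aak-2*, and *daf-15*, the Raptor subunit of TOR complex 1. *aak-2* had 80.7, 100.2, 94.8 and 96.0 CPM at 132 h and 238, 213, 229 and 196 CPM at 36 h (−1.29 ± 0.14, adjusted p = 1.33e-10), without overlap. It shares sequence on the chromosome with *mec-4*, which rose. In the list of autophagy genes and HLH-30, the master regulator of lysosomal genes, 11 of 27 fell and 4 rose (*lmp-1*, *sqst-1*, *bec-1* and *mxl-3*), with a median of −0.08, but with spike-in scaling none fell and 9 rose with a median of 0.68, which is 0.11 below that of all genes. The call of *lmp-1* (0.31) was lost without replicates 1 or 2 at 132 h or 3 or 4 at 36 h, at 0.26 to 0.29. *hlh-30* itself was not called, at 554 ± 19.4 CPM at 132 h and 597 ± 27.6 CPM at 36 h.

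**Figure D3:**
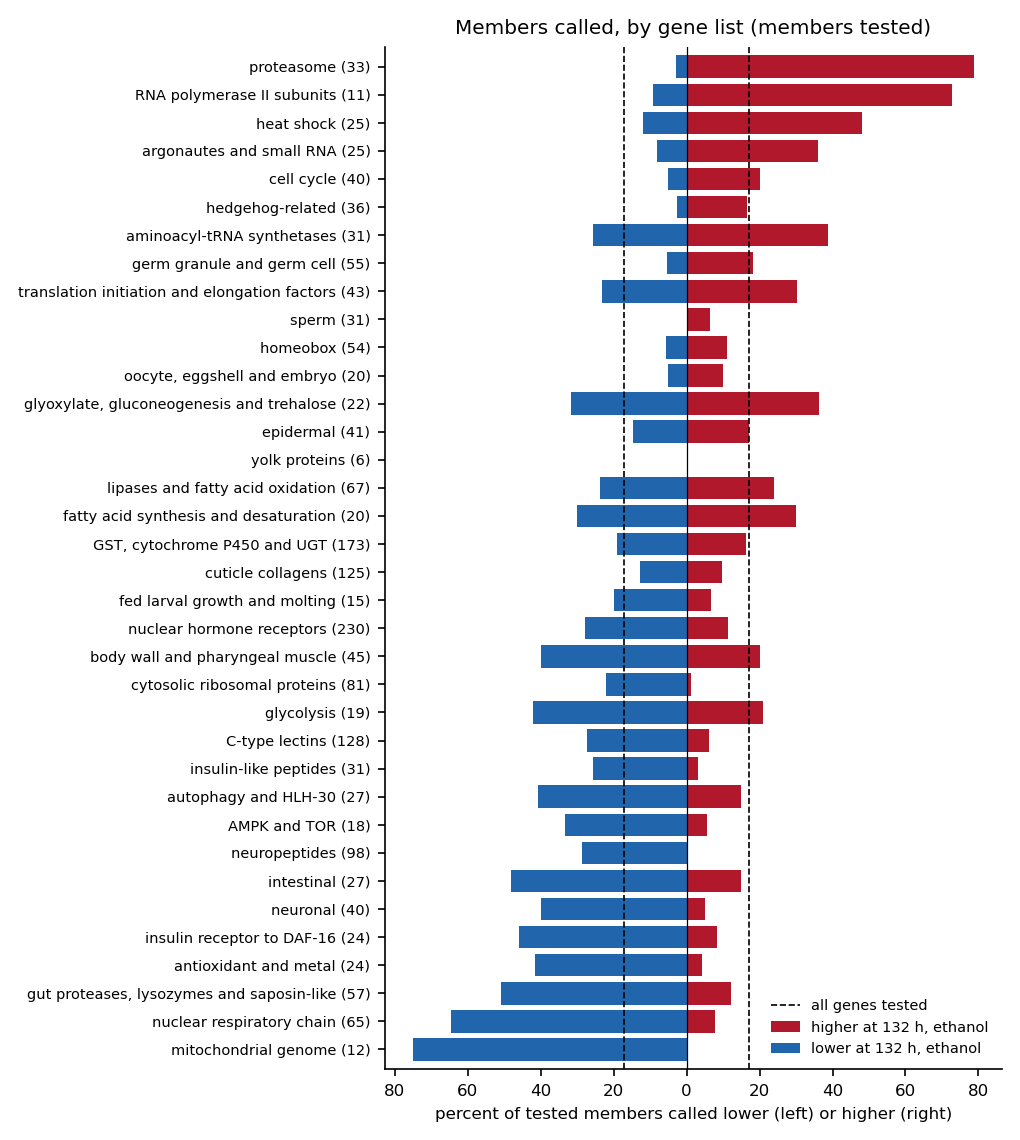
Percent of the tested members of each gene list that were called higher (right) or lower (left) at 132 h with ethanol against 36 h, with the number of members tested beside each name and lines at the shares over all genes, 17% higher and 17.1% lower. The proteasome reaches furthest to the right, at 78.8% higher, and the mitochondrial genome furthest to the left, at 75.0% lower.

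Of 25 heat shock genes, 12 rose (48.0%, against 17% of all genes) and 3 fell, with a median of 0.54, and with spike-in scaling 14 and 2 with a median of 1.28, which is 0.50 above that of all genes. *hsp-90*, the cytosolic Hsp90 chaperone, had 9647, 8314, 11068 and 11445 CPM at 132 h and 3689.6, 4149.5, 3161 and 4109 CPM at 36 h (1.50 ± 0.16, adjusted p = 1.50e-10). *hsp-17*, a small heat shock protein, had 43.5, 46.6, 42.1 and 62.7 CPM at 132 h and 4.01, 0.245, 0.746 and 2.54 CPM at 36 h (4.62 ± 0.47, adjusted p = 2.80e-11). The groups were apart for both, and both overlap other genes. The chaperone *hsp-110* and the endoplasmic reticulum chaperone *hsp-4* rose by 1.39 ± 0.17 and 1.52 ± 0.32 on the log2 scale. The 3 that fell were *hsp-12.3*, *hsp-12.6* and *hsp-6*. *hsp-12.6*, a small heat shock protein known as a DAF-16 target, had 2.28, 1.66, 1.36 and 1.01 CPM at 132 h and 145, 124, 118 and 183 CPM at 36 h (−5.81 ± 0.60, adjusted p = 4.03e-11). *hsp-6*, the mitochondrial Hsp70, had 543, 521, 665 and 507 CPM at 132 h and 1627, 1467, 1475 and 1070.1 CPM at 36 h (−1.39 ± 0.14, adjusted p = 1.90e-11).

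Antioxidant and metal-handling genes fell in 10 of 24 cases and rose in 1, *cdr-4*, with a median of −0.42, while with spike-in scaling 1 fell and 4 rose with a median of 0.56, which is 0.22 below that of all genes. The metallothioneins *mtl-2* and *mtl-1* fell by 4.60 and 0.91 on the log2 scale, with *mtl-2* at 1.65 ± 0.66 CPM at 132 h and 45.8 ± 7.35 CPM at 36 h. Ferritins *ftn-1* and *ftn-2*, peroxiredoxin *prdx-2* and the glutathione synthesis gene *gcs-1* were lower too.

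Components of protein synthesis differed. Among 81 cytosolic ribosomal protein genes, 18 fell and 1 rose, with a median of −0.28, but with spike-in scaling none fell and 2 rose with a median of 0.41, which is 0.37 below that of all genes. The number that fell was 29 without W1, and in the fit of the 8 libraries alone with W1 it was 1, with a median of −0.0024. *rpl-24.2* had 324, 273, 401 and 397 CPM at 132 h and 864, 753, 758 and 690.2 CPM at 36 h (−1.05 ± 0.17, adjusted p = 1.79e-06). The gene that rose was *rpl-11.1*, 1 of a pair for the same ribosomal protein between which reads may be divided, with 151, 155, 178 and 202 CPM at 132 h and 79.0, 86.0, 88.0 and 79.0 CPM at 36 h (1.10 ± 0.18, adjusted p = 3.50e-06). Both sets of libraries separated without overlap, in opposite directions. The summed level of the ribosomal protein genes was 123314 to 180846 CPM at 132 h and 178779 to 204097 CPM at 36 h, so the sums overlapped.

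Of 43 initiation and elongation factors 13 rose and 10 fell, with a median of 0.22 (24 and 0 with spike-in scaling). *inf-1*, the eIF4A helicase, had 459, 439, 412 and 409.9 CPM at 132 h and 40.3, 52.7, 36.1 and 31.8 CPM at 36 h (3.53 ± 0.20, adjusted p = 8.58e-19). *eif-3.E*, a subunit of eIF3, had 162, 168, 161 and 165 CPM at 132 h and 540.4, 489.7, 436 and 409 CPM at 36 h (−1.49 ± 0.13, adjusted p = 1.32e-13). The eIF3 subunits *eif-3.B*, *eif-3.F* and *eif-3.G* fell as well. Of 31 aminoacyl-tRNA synthetases, which charge tRNAs with their amino acids, 12 rose and 8 fell with a median of −0.06 (14 and 1 with a median of 0.78 with spike-in scaling, and 9 and 6 with a median of 0.12 in the fit of the 8 libraries alone with W1). The asparaginyl enzyme *nars-1* had 413, 459, 392 and 314 CPM at 132 h and 39.1, 57.8, 44.4 and 35.4 CPM at 36 h (3.25 ± 0.20, adjusted p = 6.59e-18), and the isoleucyl enzyme *iars-1* had 2295, 2424, 2326 and 2633 CPM at 132 h and 456, 487, 439 and 454 CPM at 36 h (2.51 ± 0.15, adjusted p = 2.58e-18). The cysteinyl enzyme *cars-1* was lower in each library, with 132, 152, 137 and 132 CPM at 132 h and 565, 552, 500.2 and 515 CPM at 36 h (−1.95 ± 0.13, adjusted p = 1.39e-16). *iars-1* and *cars-1* overlap other genes.

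The proteasome, which degrades ubiquitin-tagged proteins, had the largest share of members higher among the 36 lists. Of 33 subunit genes 26 rose (78.8%) and 1 fell, with a median of 0.71, and with spike-in scaling 30 rose and none fell with a median of 1.52, which is 0.73 above that of all genes. The summed level was 3830 to 4134 CPM at 132 h and 2353 to 2631 CPM at 36 h. *pbs-2*, a β subunit of the catalytic core, had 281, 287, 278 and 215 CPM at 132 h and 71.2, 81.6, 76.6 and 77.3 CPM at 36 h (1.91 ± 0.20, adjusted p = 6.88e-11). Its lowest library at 132 h, replicate 4, was still far above all at 36 h. The member that fell, *rpn-6.2*, was low in both groups, at 3.76 ± 0.808 CPM at 132 h and 6.54 ± 5.32 CPM at 36 h, and its call (−1.34) was lost without replicates 1 or 3 at 132 h or 2 or 3 at 36 h, at −1.31 to −0.73.

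Of 11 genes tested for subunits of RNA polymerase II, 8 rose and 1 fell, with a median of 0.98, and with spike-in scaling 9 rose and none fell with a median of 1.70, which is 0.92 above that of all genes. *rpb-5*, a subunit shared among the nuclear polymerases, had 124, 112, 117 and 102 CPM at 132 h and 39.8, 35.8, 26.2 and 31.7 CPM at 36 h (1.83 ± 0.18, adjusted p = 1.69e-11), without overlap. *rpb-11*, *rpb-3*, *rpb-8*, *rpb-2*, *rpb-7* and *rpb-4* rose by 1.83, 1.47, 1.27, 1.23, 0.98 and 0.66 on the log2 scale. *rpb-9* fell by 0.76, with 24.2 ± 2.18 CPM at 132 h and 43.9 ± 2.73 CPM at 36 h.

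Genes of the respiratory chain were lower in relative abundance in both genomes and near 0 in median with spike-in scaling. None of the 12 protein-coding genes of the mitochondrial genome rose and 9 fell (75.0%), with a median of −0.88, and with spike-in scaling none was called and the median was −0.09, which is 0.87 below that of all genes. *COX3*, a subunit of cytochrome c oxidase (mitochondrial DNA, 5678 to 6449), had 1612, 1636, 1275 and 1893 CPM at 132 h and 3545, 3179.8, 3133 and 3314 CPM at 36 h (−1.12 ± 0.16, adjusted p = 1.85e-07). Of 65 nuclear genes for the respiratory chain and ATP synthase, 42 fell (64.6%) and 5 rose, with a median of −0.77, but with spike-in scaling 4 fell and 11 rose with a median of 0.02, which is 0.77 below that of all genes. *ndub-10*, an accessory subunit of complex I, had 173, 143, 206 and 201 CPM at 132 h and 842, 772, 686 and 639 CPM at 36 h (−2.05 ± 0.16, adjusted p = 1.61e-14). *nuo-1*, a core subunit of complex I, had 172, 171, 176 and 179.9 CPM at 132 h and 487, 479, 497 and 457 CPM at 36 h (−1.57 ± 0.12, adjusted p = 7.63e-15). No library of these 3 genes at 132 h reached the lowest at 36 h. The 5 that rose were *nduf-6*, *asb-1*, *ndua-2*, *cox-11* and *nduf-2.2*. *asb-1* (0.74) lost its call without any 1 library except replicate 1 at 132 h and replicate 4 at 36 h, at 0.51 to 0.79, and *cox-11* (1.00) without replicate 3 at 132 h, at 0.81. *nduf-2.2*, which has a paralogue in *gas-1*, had 42.8, 52.0, 28.7 and 33.6 CPM at 132 h and 7.05, 11.5, 7.25 and 8.50 CPM at 36 h (2.14 ± 0.27, adjusted p = 9.19e-09). *nuo-1* and *nduf-6* overlap other genes.

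**Figure D4:**
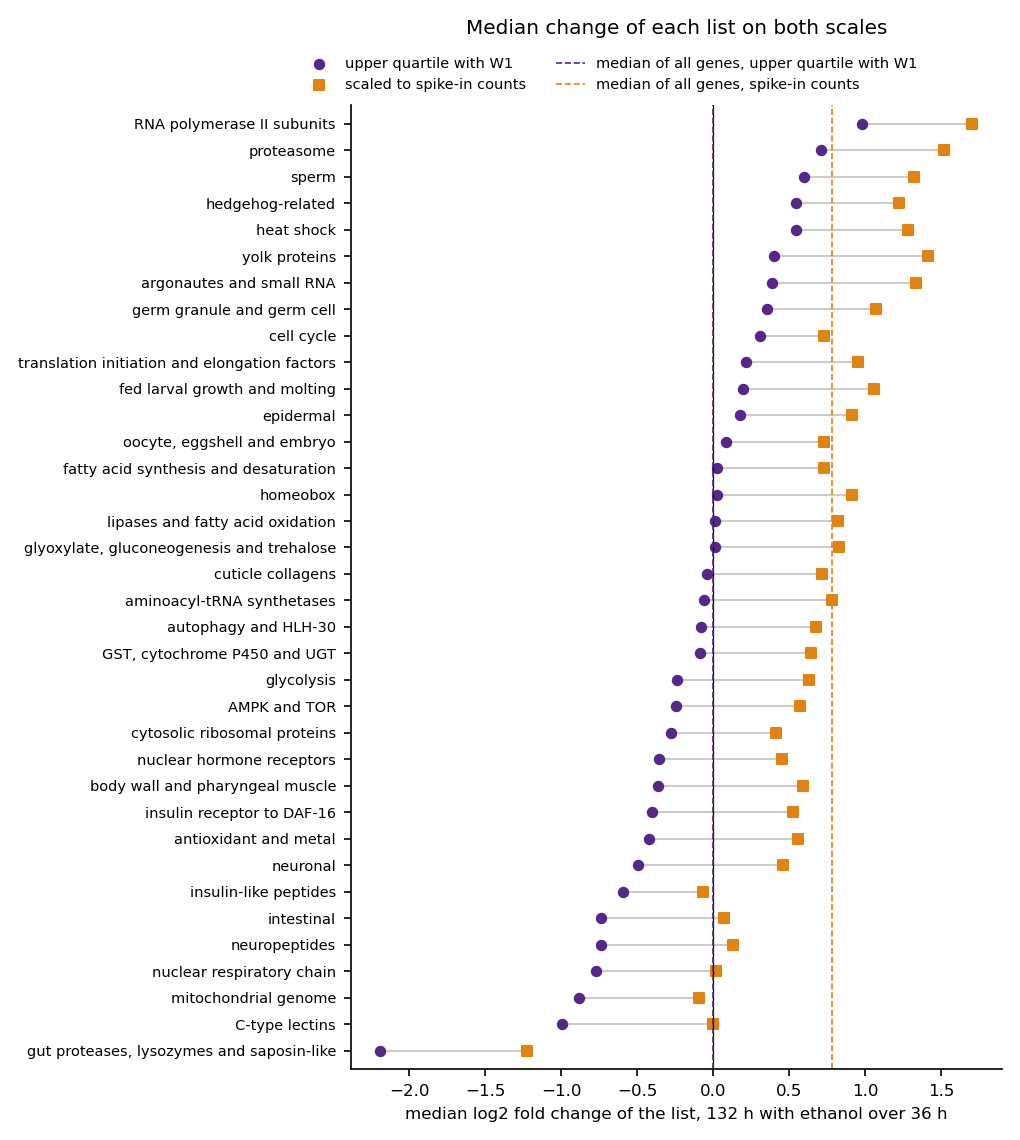
Median log2 fold change of each gene list, 132 h with ethanol over 36 h, with upper-quartile normalization and W1 and with spike-in scaling without W1, and lines at the medians over all genes (−0.0024 and 0.78). Most lists move right by about the shift of all genes, so that the nuclear respiratory chain goes to 0.02 and the gut proteases, lysozymes and saposin-like genes alone stay far below 0, at −1.22.

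Transcription factor families differed. Nuclear hormone receptors, a family that is much expanded in nematodes, fell in 64 of 230 cases (27.8%) and rose in 26 (11.3%), with a median of −0.36, but with spike-in scaling 18 fell and 50 rose with a median of 0.45, which is 0.33 below that of all genes. *nhr-18* had 24, 24.4, 24.9 and 26.5 CPM at 132 h and 234, 189, 225 and 199 CPM at 36 h, and its fall of −3.18 ± 0.16 had an adjusted p of 2.05e-20. *nhr-58* had 65.5, 52.6, 47.6 and 48.5 CPM at 132 h and 5.53, 3.92, 2.24 and 3.81 CPM at 36 h (3.84 ± 0.33, adjusted p = 2.98e-13). Both separated the groups by an order of magnitude or close to it. Of 54 homeobox genes of the *ceh* family, 6 rose and 3 fell (*ceh-40*, *ceh-23* and *ceh-79*), with a median of 0.02 (15 and 1 with spike-in scaling, and 0 and 3 with a median of −0.35 in the fit of the 8 libraries alone with W1).

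The X chromosome stood apart from the autosomes. Of 2261 X-linked genes 20.3% fell and 9.60% rose, with a median of −0.26, and with spike-in scaling their median was 0.55, which is 0.23 below that of all genes. The autosomes had medians of −0.06 to 0.11 and shares of 15.2% to 17.3% lower and 16.1% to 20.9% higher. Chromosome III had the largest share higher, 20.9%, and chromosome I the smallest share lower, 15.2%. No test was made between chromosomes.

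The change with time was set beside that in the strains most like this one. *Pgld-1::TIR1* (strain CA1352) carries the same transgene with untagged AMA-1, and *Peft-3::TIR1; ama-1::AID* (strain LRB389) carries the same tagged AMA-1 with TIR1 in somatic cells. These strains have their own libraries at both times, so no library is shared between the comparisons, although all entered 1 fit. No gene differed in its change with time from either strain at an adjusted p under 0.05 (edgeR quasi-likelihood test of the interaction, 0.00% of 15549 genes each). At an unadjusted p under 0.05, 633 genes differed from CA1352 and 650 from LRB389, where 777 would be below it by chance. DESeq2 called 11 higher and 5 lower against CA1352, and 11 higher and 4 lower against LRB389. The median standard error of the difference was 0.55 and 0.54 on the log2 scale, so differences of modest size could not be detected. In CA1352 at 132 h with ethanol, replicate 4 held 6.41% spike-ins and had a W1 of 0.311. The other replicates of that group held 1.69% to 2.09%, with a W1 of −0.163 to −0.0854. No fit of the difference left that library out. Of the 5312 genes called in LRB387 (34.2% of those tested), 5266 had the same sign in CA1352 and 5260 in LRB389. Of the 2651 genes called higher, 2175 were also called higher in CA1352 and 1932 in LRB389. Of the 2661 called lower, 2284 and 2032 were called lower there. Over all 15549 genes, called or not, the log2 fold changes had a Pearson correlation of 0.69 with CA1352 and 0.70 with LRB389.

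The genes with the largest changes behaved alike in the 3 strains by sign and by call. All 12 of the largest rises were also called higher in CA1352, with log2 fold changes of 3.48 to 11.03, and in LRB389, at 5.14 to 11. All 12 of the largest falls were called lower, at −8.06 to −2.88 in CA1352 and −9.96 to −4.21 in LRB389. For *acs-2* the log2 fold change was 9.05 in LRB387, 10.16 in CA1352 and 10.26 in LRB389. For *icl-1* these values were 5.31, 5.72 and 5.13, and for *asp-1* they were −6.35, −6.05 and −6.11. For *glh-1*, in the same order of strains, they were 2.33, 2.01 and 1.49. No difference between strains among these genes passed an adjusted p under 0.05 (edgeR quasi-likelihood test of the interaction). For some rises with no count at 36 h that test could show nothing, since the difference had no usable estimate. For F20E11.17 against CA1352 the standard error of the difference was 10913. Sizes were not alike throughout, with W09C3.7 at −8.25 in LRB387, −2.88 in CA1352 and −5.07 in LRB389. The hedgehog-related gene *grd-3* was at 4.83, 1.58 and 1.99 in the same order of strains. It was among the 5 genes with the smallest p for a higher value in LRB387 than in each strain. That p was 2.0e-04 against CA1352 and 7.1e-04 against LRB389 (unadjusted, edgeR quasi-likelihood test of the interaction), and neither passed after adjustment. Fold changes of genes with no count in a group are fitted values and no bounds.

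**Figure D5:**
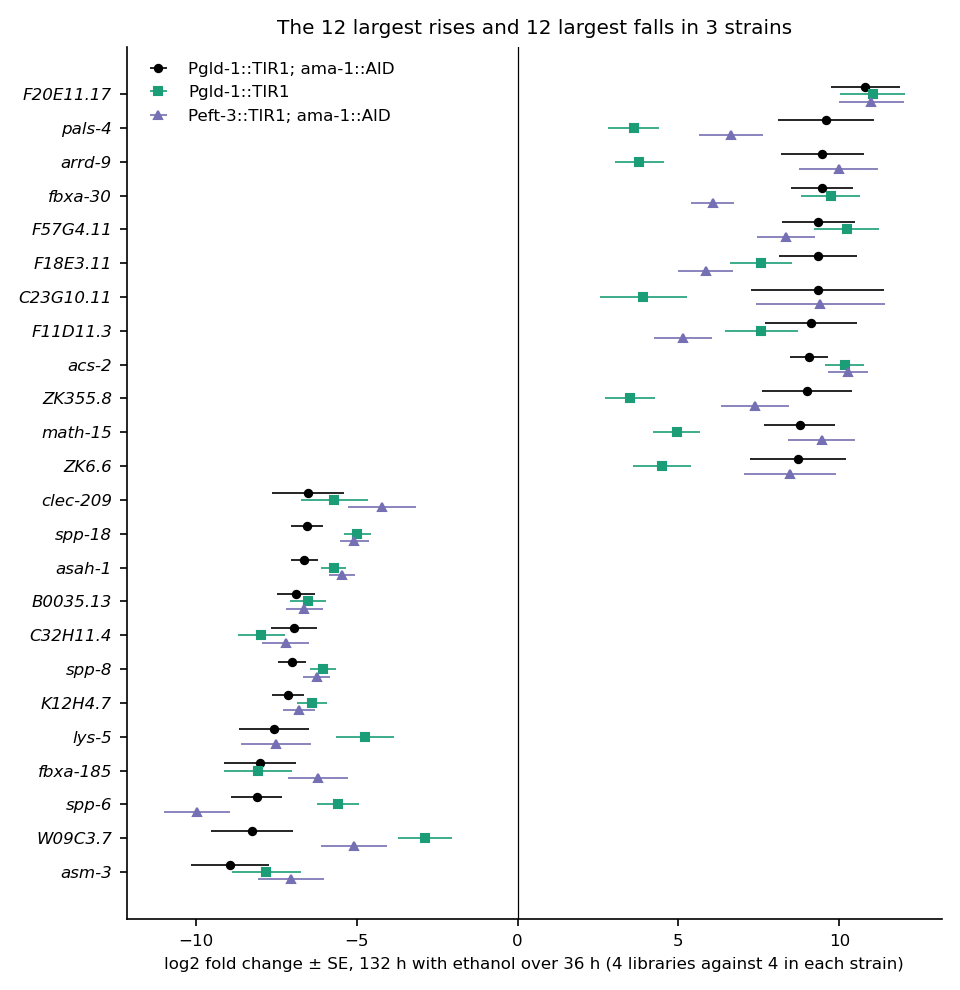
Log2 fold change ± SE, 132 h with ethanol over 36 h, for the 12 largest rises and 12 largest falls in LRB387, with the same genes in CA1352 and LRB389 (4 libraries against 4 in each). All rises lie to the right of 0 and all falls to the left in the 3 strains, between −9.96 and 11.03.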

How the data were processed

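mRNA was sequenced from populations of arrested L1 larvae, 4 libraries per group. The authors added ERCC spike-ins in proportion to total RNA, selected poly-A RNA and sequenced pairs of 50 bp reads, which they mapped with Bowtie 1.2.2 to the WS273 genome, keeping pairs with at most 2 alignments, and counted with HTSeq 0.11.2 (versions from the submitters' processing notes). Bowtie does not split reads at introns. Each deposited file holds raw counts for 46911 genes, of which 46857 matched the WBcel235 annotation used for names and positions, 92 spike-ins and 5 totals of unassigned pairs, which were left out. The library kit does not mark strand, so counts of overlapping genes cannot be told apart. The 4 libraries of a group are biological replicates per the labels, each raised on its own set of plates. By the paper's methods, the flasks of a strain for both times came from the same plates within a replicate. Libraries at 36 h and 132 h were thus paired by origin, but the labels do not give the pairs. The main test did not pair them, and a fit with a replicate block is given below.

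Tests covered the 15549 protein-coding genes that exceeded 10 counts in 4 or more of the 48 libraries, after the study's methods, with upper-quartile normalization, W1 (RUVg formula, k = 1, over 62 spike-ins) as a covariate and 12 groups in 1 fit. The quasi-likelihood test of edgeR 4.0.16 (R 4.3.3) replaced the likelihood ratio test that the authors ran in edgeR 3.24.4. Benjamini-Hochberg adjustment ran over all genes tested, and a gene was called under 0.05. Tested on simulated data for this comparison (15549 genes, 200 changed), the fit made 4 false calls. It recovered 23% of genes changed by 1 and 55% of those changed by 2 on the log2 scale. Far more genes were called in the data (34.2%), and the adjusted threshold depends on that share, so these rates do not measure recovery there. Exact permutation tests were used for 4 measures of whole libraries, with adjustment over the 4. Figures were drawn with matplotlib 3.10.9.

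The comparison and the 36 gene lists were chosen with earlier results of these data known. Lists were described by counts and medians with no set test. The named genes were *ama-1*, *gld-1* and *eef-1A.1*; the 12 largest rises and 12 largest falls among called genes whose libraries did not overlap and whose mean count reached 50 in a group, as it did for 4270 genes; up to 4 members called in each direction and the 3 most abundant not called in each list; and the 5 genes with the smallest p in each direction of each difference between strains. Other members were named after their values were seen, where a count was 5 or fewer or where they complete a group. Fitted values of genes with no count in a group are no bounds. With such genes at their bound (3 counts over the group) the medians of 6 lists moved, by at most 0.31. The alternatives were TMM, spike-in scaling (without W1), no W1, DESeq2 1.42.0, the likelihood ratio test, other filters, a threshold of 0.01, all biotypes, only the libraries compared, a replicate block and leaving out each library.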

Additional observations from a re-analysis of the deposited data

Results flagged for a closer look

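Among 156 groups of 4 libraries (73 genes and 5 library measures at each time), 7 had a library far from the other 3 by Dixon's test, 5 of them at 132 h and 2 at 36 h. Chance flags about 1 in 20 groups where values are normally distributed. Of the genes that rose, *cht-1* was at 1036 CPM in replicate 2 at 132 h, with the others at 533 to 560.1 CPM, and *prg-1* was at 63.0 CPM in the same library, with the others at 34.9 to 39.7 CPM. *pbs-2* was at 215 CPM in replicate 4 at 132 h, below the others at 278 to 287 CPM. Replicate 2 at 36 h held 2.69 CPM of *spp-27*, against 0 to 0.127 CPM in the others. Of the genes that fell, *asm-3* was at 0.415 CPM in replicate 2 at 132 h and *spp-6* at 0.276 CPM in replicate 4 at 132 h, with no count in the others. In such groups any count in a single library is flagged. *spp-6* was at 24.1 CPM in replicate 4 at 36 h, against 33.8 to 35.7 CPM in the others. In each of these genes every library at 132 h stayed on the same side of every library at 36 h. The genes screened were largely picked for being called, some also for not overlapping, so this separation was partly fixed by the choice.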

How the results depend on the processing

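The counts of genes higher and lower stayed within 1.5 times of 2651 and 2661 under TMM (2839 and 2538), no W1 (2851 and 2687), DESeq2 (2991 and 2731), the likelihood ratio test (2853 and 2820), no filter (2440 and 2662), a stricter filter (2642 and 2614) and all biotypes (2781 and 2760), and leaving out each library gave 2343 to 2536 and 2395 to 2504. Spike-in scaling gave 4665 and 623, so that 88.2% of calls were higher against 49.9%, and fitting only the 8 libraries with W1 gave 1252 and 1408. The labels do not say that a replicate number marks the same culture at both times, and libraries of the same number did not deviate together (correlations −0.091 to 0.017), and a replicate block gave 2661 and 2695. For the difference from CA1352, DESeq2 called 11 and 5 genes, and for that from LRB389 11 and 4, while the likelihood ratio test called 1 lower there. The W1 difference was −0.210 to −0.147 and that of the 10 most abundant genes −5.41 to −3.93 percentage points with each library left out, where the exact permutation test could not go below an adjusted p of 0.05. Spike-in scaling turned the log2 fold changes of *car-1* to 0.02, *mes-3* to 0.27, *mdt-15* to 0.0019, *rpl-1* to 0.031, *rpl-26* to 0.0098, *rpl-20* to 0.095, *fzr-1* to 0.36, *nrde-3* to 0.14, *lin-14* to 0.29 and *lin-41* to 0.50. With only the 8 libraries, *ceh-74* turned to −0.15. The cause was not tested. Of 244 called named genes, 25 lost the call without some library and 0 changed sign. The fold changes of genes with few counts are the least certain.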

Other observations

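Gene families outside the lists were also counted, by the prefix of their symbol, for the 74 prefixes with at least 20 tested members, and the ones given here were chosen after their values were seen. Nucleoporin genes (*npp*), which build the nuclear pore, rose in 21 of 26 cases (80.8%) with none lower and a median log2 fold change of 1.23, and with spike-in scaling their median was 1.13 above that of all genes. *npp-9*, a RanBP2-like nucleoporin, averaged 1014 ± 178 CPM at 132 h and 133 ± 12.3 CPM at 36 h (3.05 ± 0.22 SE, adjusted p = 7.03e-16, edgeR quasi-likelihood, higher in 4 of 4 libraries), and it overlaps *clpf-1*. Genes of vacuolar protein sorting (*vps*) rose in 16 of 31 cases and fell in 5 (*vps-20*, *vps-22*, *vps-33.1*, *vps-34* and *vps-51*), and DnaJ co-chaperones (*dnj*) rose in 13 of 29 and fell in 1 (*dnj-8*). Of 36 *pals* genes 18 rose and 3 fell (*pals-18*, *pals-31* and *pals-40*), with a median of 1.83. *pals-5*, a common reporter gene of the response to intracellular pathogens, averaged 3.31 ± 0.603 CPM at 132 h and 0.127 ± 0.254 CPM at 36 h. The F-box family *fbxa* rose in 44 of 144 cases and fell in 18.

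Among the subunits of the mitochondrial ribosome, 16 of 41 *mrpl* genes fell and 2 rose (*mrpl-17*, *mrpl-20*), and 10 of 29 *mrps* genes fell and 1 rose (*mrps-15*), with medians of −0.38 and −0.06 that spike-in scaling turned to 0.40 and 0.63, both below the shift of 0.78 of all genes. Of 41 potassium channel genes of the *twk* family 10 fell and none rose, and of 31 guanylate cyclase genes (*gcy*) 7 fell and none rose, with medians of −0.48 and −0.78 that spike-in scaling turned to 0.38 and 0.19. Among non-coding genes, tested in the fit with all biotypes, 78 of 594 ncRNA genes rose (13.1%) and 23 fell (3.87%), with a median of 1.04. Of 102 lincRNA genes 15 rose (14.7%) and 6 fell (5.88%). Protein-coding genes in that fit had 16.5% higher and 17.1% lower, so neither non-coding class had a larger share higher.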
